A study of Mus musculus with 6 samples.

Results

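Adrenomedullin is a vasodilator peptide that endothelial and other cells release under low oxygen, and its receptor is built from separate gene products. The receptor's core is the G protein-coupled protein encoded by Calcrl. A receptor activity-modifying protein (RAMP) carries it to the cell surface and sets which ligand it answers to: with RAMP1 it is the receptor for calcitonin gene-related peptide, and with RAMP2 or RAMP3 it binds adrenomedullin. In the lung the receptor works mainly through cyclic AMP, where it relaxes vessels and tightens the endothelial barrier. The 6 genes described here are the ligand genes Adm and Adm2 (which encodes intermedin), the receptor gene Calcrl, and Ramp1, Ramp2 and Ramp3. They were chosen by symbol, each had 1 probe set, and all 6 were among the 24704 named genes of the arrays.

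Whole-lung RNA was profiled on 6 Affymetrix arrays, 3 from control mice and 3 from mice with an endothelial-cell (EC) knockout of the osmosensitive transcription factor gene Nfat5, all exposed to hypoxia for 7 days. Controls were Nfat5fl/fl mice given miglyol, the solvent. Knockouts, labelled Nfat5(EC)-/-, had gene ablation induced by 1 mg tamoxifen per day, so genotype and tamoxifen cannot be told apart. Injections ran over 5 days in male and female mice of 10 to 12 weeks, followed by a rest of 2 to 3 weeks, and blood was flushed from the lungs before lysis. The sources used here do not name the Cre driver. Per the design text there were 4 mice a group, and lungs with foreign tissue or a poor expression response to hypoxia were dropped, so the arrays were in part chosen by the expression of hypoxia-responsive genes, of which Adm is one. No array came from normoxia, so the values do not measure how hypoxia changed any gene. Nothing in the labels says more about how the samples of a group were separated, so p-values measure the spread between these samples.

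The promoters of 5 of the 6 genes were in the RefSeq table of build GRCm38.p6. Those of Calcrl and Ramp3, whose levels differed most between the groups, and of Adm, the hypoxia-responsive ligand gene, are shown as the 250 bases before the start site that table uses, 5′ to 3′ on the gene's strand. RefSeq's gene span starts further upstream for Calcrl and Ramp3, so the last 139 bases of the Calcrl window and the last 27 of the Ramp3 window lie inside the gene, and those of Adm do not. Capitals mark the letters of 2 searched motifs on either strand: GGAAA, the core shared by NFAT factors, and ACGTG or GCGTG, the core that hypoxia-inducible factors bind. 
Calcrl, chr2:84425267-84425516, minus strand: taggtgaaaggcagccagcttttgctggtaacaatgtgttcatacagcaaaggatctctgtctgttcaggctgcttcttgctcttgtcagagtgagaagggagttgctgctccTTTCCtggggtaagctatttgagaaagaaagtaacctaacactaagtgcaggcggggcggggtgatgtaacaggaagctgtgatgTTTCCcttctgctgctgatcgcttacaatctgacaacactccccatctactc
Ramp3, chr11:6658283-6658532, plus strand: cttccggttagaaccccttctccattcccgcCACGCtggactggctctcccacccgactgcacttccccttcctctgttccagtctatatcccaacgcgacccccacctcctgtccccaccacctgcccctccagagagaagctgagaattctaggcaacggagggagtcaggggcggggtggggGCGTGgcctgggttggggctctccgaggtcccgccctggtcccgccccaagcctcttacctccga
Adm, chr7:110627407-110627656, plus strand: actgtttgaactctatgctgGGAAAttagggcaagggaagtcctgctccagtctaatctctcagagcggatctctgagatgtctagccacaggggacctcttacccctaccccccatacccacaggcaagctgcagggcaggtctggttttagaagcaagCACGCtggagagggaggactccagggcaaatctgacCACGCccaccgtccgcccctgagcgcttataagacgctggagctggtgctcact
In the Calcrl sequence both capital stretches are GGAAA read on the opposite strand, and both lie in the part inside the gene's span. Ramp3 and Adm each held 2 matches to the hypoxia core, and Adm held 1 GGAAA as well. TGGAAA, the longer core used by NFAT5, which contains GGAAA, was in 0 of the 5 promoters. Among 32851 promoters of the same length, 55.6% held GGAAA, 18.6% held TGGAAA and 38.6% held a hypoxia core. A match describes letters and does not show binding, and a missing match says only that the letters are not in this window.

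Across the 6 arrays Calcrl, the receptor core, was lower in the knockout lungs and Ramp3, 1 of its 3 partners, was higher, while Adm, Adm2, Ramp1 and Ramp2 did not pass the threshold. A gene counts as changed when its limma p-value, adjusted by Benjamini-Hochberg over all 24704 genes, was under 0.05. By that rule 2 of 6 genes changed, beside 25.5% of all genes (12.5% higher and 13.0% lower). The groups did not overlap at 3 of the 6 (Calcrl, Ramp2 and Ramp3), beside 41.9% of all genes. The knockout arrays thus differed widely from the controls, and 2 of 6 is a share near that background. The calls of Calcrl and Ramp3 both held when any single array was left out (limma, adjusted p = 0.0035 to 0.020 and 0.0040 to 0.046). The count over all genes, 6292, was 3141 without control replicate 1 and 2882 without control replicate 3. A fit on the genes above the median level alone, adjusted over those genes only, called 5788, a larger share of the genes it tested. The share of bright genes that passed in the main fit was not counted. The 25.5% may therefore be a low background for lists of bright genes. In whole lung, fewer cells of a type and less RNA per cell cannot be told apart.

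**Figure D1:**
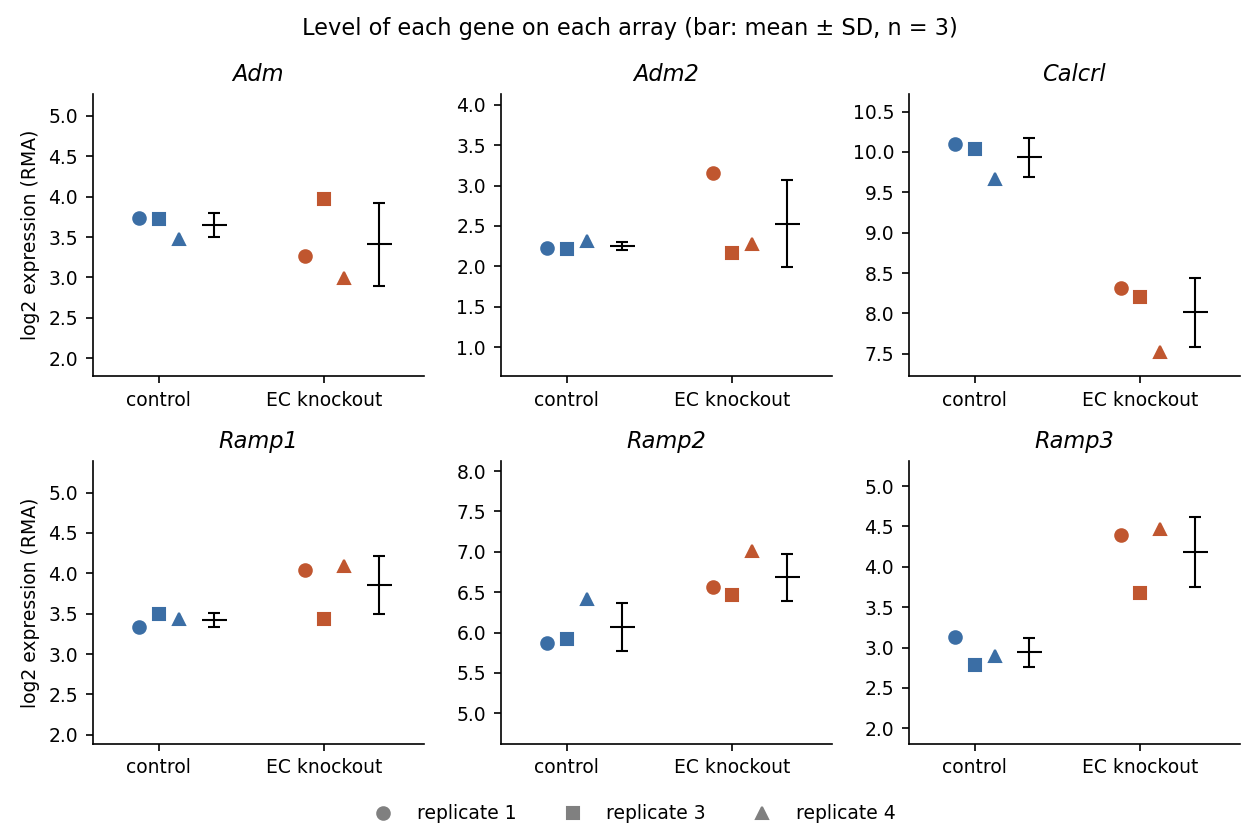
Log2 expression (RMA) of each gene on each array, with 3 control arrays in blue and 3 EC knockout arrays in orange. Marker shapes give the replicate number and bars the mean ± SD, and every panel spans the same number of log2 units. Control arrays of Calcrl lie at 9.66 to 10.1 and knockout arrays at 7.52 to 8.32, while the Ramp3 arrays lie at 2.79 to 3.13 and 3.68 to 4.47.

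Adm encodes the precursor of adrenomedullin. The Adm log2 level was 3.74, 3.73 and 3.48 on control replicates 1, 3 and 4, and 3.27, 3.97 and 2.99 on knockout replicates 1, 3 and 4. Knockout replicate 3 lay above every control array and the other knockout arrays lay below every control array, so the groups overlapped. Controls averaged 3.65 ± 0.15 and knockouts 3.41 ± 0.51 (SD, n = 3 each). Limma put the log2 fold change at -0.24 ± 0.27 (SE, adjusted p = 0.57), with a 95% interval of -0.84 to 0.36. That interval covers both a modest fall and a modest rise of the ligand gene.

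Adm2 encodes intermedin, a related peptide that acts through the same receptors. On the log2 scale Adm2 measured 2.23, 2.21 and 2.31 on control replicates 1, 3 and 4, and 3.15, 2.16 and 2.27 on knockout replicates 1, 3 and 4. A single array, knockout replicate 1, stood above the rest, and the other 5 spanned 2.16 to 2.31. Those 5 are dim values, between the arrays' lower quartile (2.02) and median (2.98), while knockout replicate 1 lay above the median, and the table gives no background level. Limma put the log2 fold change at 0.28 ± 0.27 (SE, adjusted p = 0.51), and it was -0.034 without knockout replicate 1.

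Calcrl encodes the calcitonin receptor-like receptor, the protein through which adrenomedullin, intermedin and calcitonin gene-related peptide all signal. The Calcrl log2 level was 10.1, 10.04 and 9.66 on control replicates 1, 3 and 4, and 8.32, 8.20 and 7.52 on knockout replicates 1, 3 and 4. Every knockout array lay below every control array. Controls averaged 9.93 ± 0.24 and knockouts 8.01 ± 0.43 (SD, n = 3 each), a 3.79-fold difference. Limma put the log2 fold change at -1.92 ± 0.26 (SE, adjusted p = 0.0024), with a 95% interval of -2.50 to -1.34. Of all genes measured, 203, or 0.822%, were as low or lower by this measure, Calcrl included.

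Ramp1 encodes the partner that turns the receptor into the one for calcitonin gene-related peptide. On the log2 scale Ramp1 measured 3.33, 3.50 and 3.44 on control replicates 1, 3 and 4, and 4.04, 3.44 and 4.09 on knockout replicates 1, 3 and 4. Knockout replicates 1 and 4 lay above the controls and knockout replicate 3 lay among them. Limma put the log2 fold change at 0.43 ± 0.22 (SE, adjusted p = 0.20), with a 95% interval of -0.07 to 0.94.

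Ramp2 encodes the main adrenomedullin partner of endothelial cells. The Ramp2 log2 level was 5.87, 5.92 and 6.41 on control replicates 1, 3 and 4, and 6.57, 6.47 and 7.01 on knockout replicates 1, 3 and 4. The groups did not overlap, but control replicate 4 and knockout replicate 3 were only a little apart. Controls averaged 6.07 ± 0.30 and knockouts 6.68 ± 0.29 (SD, n = 3 each). Limma put the log2 fold change at 0.62 ± 0.24 (SE, adjusted p = 0.086), with a 95% interval, not adjusted for the number of genes, of 0.09 to 1.15. Ramp2 therefore missed the threshold, while the interval reaches from almost no difference to one of more than 2-fold.

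Ramp3 encodes the partner that forms the other adrenomedullin receptor and steers it after internalisation. On the log2 scale Ramp3 measured 3.13, 2.79 and 2.90 on control replicates 1, 3 and 4, and 4.39, 3.68 and 4.47 on knockout replicates 1, 3 and 4. Every knockout array lay above every control array, and knockout replicate 3 was the lowest of the 3. Controls averaged 2.94 ± 0.18 and knockouts 4.18 ± 0.43 (SD, n = 3 each), a 2.36-fold difference. Limma put the log2 fold change at 1.24 ± 0.25 (SE, adjusted p = 0.0083), with a 95% interval of 0.68 to 1.81. Of all genes measured, 941, or 3.81%, were as high or higher by this measure, Ramp3 included.

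**Figure D2:**
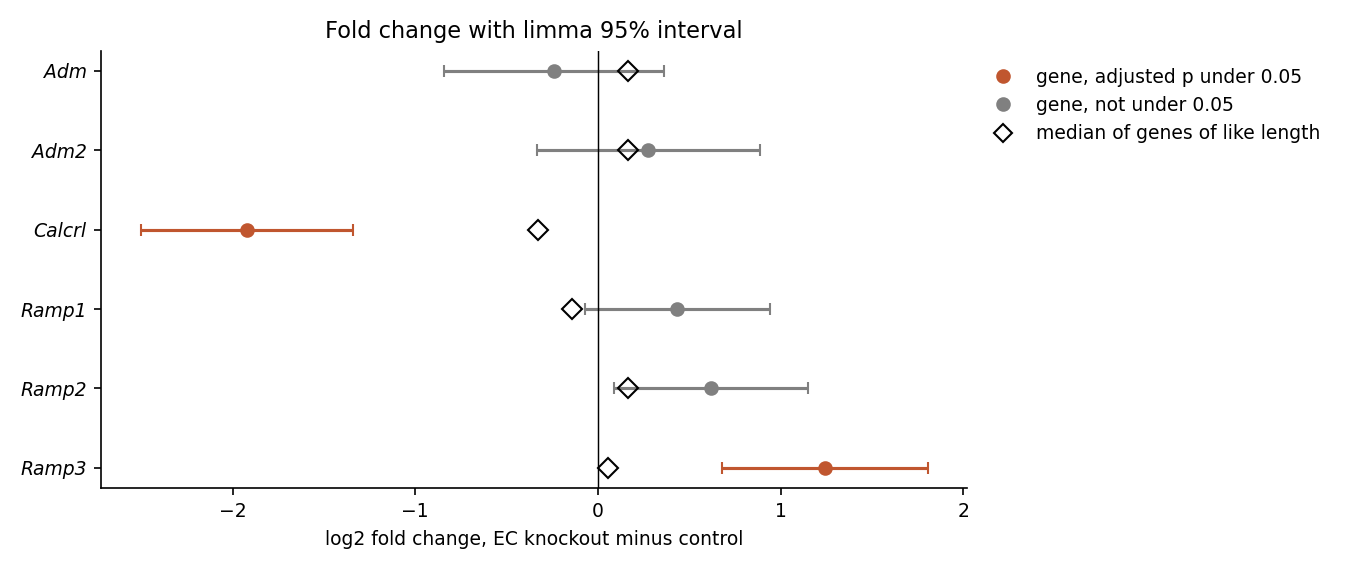
Log2 fold change (EC knockout minus control) of each gene as a point with limma's 95% interval, orange where the adjusted p was under 0.05. Open diamonds give the median fold change of protein-coding genes in the same of 5 bins of gene length. The Calcrl interval, from -2.50 to -1.34, lies below its diamond at -0.33, and the Ramp3 interval, from 0.68 to 1.81, lies above its diamond at 0.06.

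Fold changes in these arrays moved with gene length (the genomic span of the gene), and the 6 genes differ in it. Calcrl spans 94.8 kb and falls in the longest of 5 equal bins of protein-coding genes, where 31.4% of genes were lower, 5.41% were higher and the median log2 fold change was -0.33. Ramp1 (45.4 kb) lies in the next bin, at a median of -0.14. Ramp3 (19.0 kb) lies in the middle bin, where 15.1% of genes were higher, 12.3% were lower and the median was 0.06. Adm (2.16 kb), Adm2 (2.01 kb) and Ramp2 (1.92 kb) lie in the shortest bin, with a median of 0.17. With the average length trend removed from each array, over protein-coding genes, Calcrl stood at -1.54 (adjusted p = 0.0038), Ramp3 at 1.18 (adjusted p = 0.0093) and Ramp2 at 0.38 (adjusted p = 0.25). The calls of Calcrl and Ramp3 were kept under that correction. The difference of Ramp2 was smaller, and that of Ramp1, at 0.67 (adjusted p = 0.063), was larger. Adm stood at -0.50 (adjusted p = 0.21) and Adm2 at 0.026 (adjusted p = 0.95).

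Small nucleolar RNAs also separated the groups, at a median log2 level of 4.01 to 4.20 on the control arrays and 6.43 to 7.43 on the knockout arrays. With that median as a covariate Calcrl stood at -3.13 (adjusted p = 0.22) and Ramp3 at 0.63 (adjusted p = 0.83), so neither call was kept. In that fit 0 of all genes passed, with 3576 at an unadjusted p under 0.05. Over all 21 alternatives the adjusted p of Calcrl ran from 0.0013 to 0.22 and that of Ramp3 from 0.0040 to 0.83. Xist, which marks female cells, was high on control replicate 1 only (8.22, against 2.03 to 2.37 on the others). The Y-linked genes Kdm5d and Uty did not put the other 5 arrays together, while Y-linked Eif2s3y was lowest on control replicate 1. Eif2s3y was 1.63 on control replicate 1, 4.80 and 4.59 on control replicates 3 and 4, and 2.66, 3.43 and 3.97 on knockout replicates 1, 3 and 4. Kdm5d was 1.57 on control replicate 1, 4.02 and 3.94 on control replicates 3 and 4, and 1.96 to 2.16 on the knockout arrays. Uty was 2.22 on control replicate 1, 4.90 and 4.48 on control replicates 3 and 4, and 2.05, 3.29 and 4.30 on knockout replicates 1, 3 and 4. The part of sex in the values was not tested beyond the Xist fit. With Xist as a covariate Calcrl stood at -1.82 (adjusted p = 0.022) and Ramp3 at 1.34 (adjusted p = 0.034). Nfat5 itself, the targeted gene, was 4.69-fold lower in the knockouts, with all 3 arrays below all 3 controls, though the labels do not say whether its probes lie in the deleted part. Alveolar epithelial markers, the defining genes of lung tissue, had a mean log2 level of 8.28 to 8.73 on every array, against an array median of 2.98.

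Levels were also compared inside each array, as the log2 level of 1 gene minus that of another. All 5 pairs that hold Calcrl had groups without overlap, those with the ligand genes included (Adm minus Calcrl changed by 1.68 and Adm2 minus Calcrl by 2.20), so the differences from the RAMPs restate the fall of Calcrl. Only the change of this difference between groups can be read, since probe sets of different genes bind with different strength. Calcrl minus Ramp2 was 4.23, 4.13 and 3.25 on control replicates 1, 3 and 4, and 1.75, 1.73 and 0.51 on knockout replicates 1, 3 and 4. All knockout arrays lay below all control arrays, and the means differed by -2.54. Against Ramp1 the change was -2.36 and against Ramp3 it was -3.16, again without overlap of the groups. Each gave an exact two-sided permutation p = 0.10, the smallest that 3 against 3 arrays allow, and an adjusted p = 0.19 over the 15 pairs of genes compared. The RAMPs differed less from each other. Ramp1 minus Ramp3 changed by -0.81 without overlap (exact permutation p = 0.10), and Ramp2 minus Ramp3 changed by -0.62 with overlapping groups (exact permutation p = 0.20). Ramp1 minus Ramp2 changed by -0.18 (exact permutation p = 0.50).

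**Figure D3:**
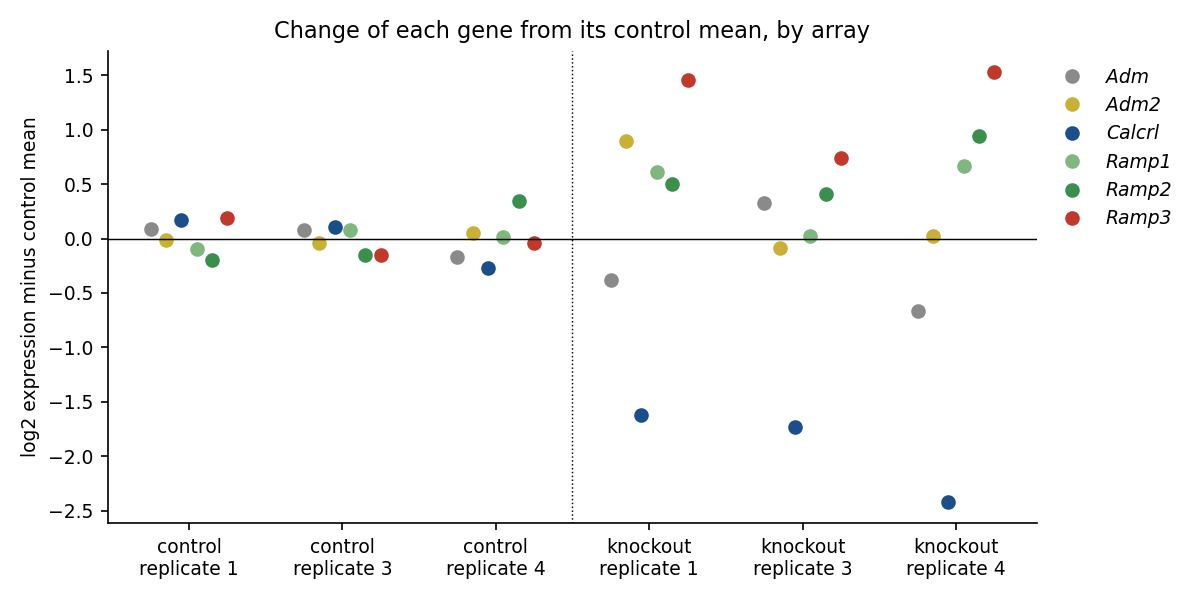
Log2 expression of each gene minus its own control mean, for the 3 control arrays (left of the dotted line) and the 3 EC knockout arrays (right). On each knockout array Calcrl is the lowest point, at -1.62 to -2.42, and Ramp3 the highest, at 0.74 to 1.53. Adm lies above its control mean on knockout replicate 3 and below it on the other knockout arrays.

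The order of the knockout arrays was shared by several of these genes. Knockout replicate 4 had the lowest Calcrl and Adm and the highest Ramp1, Ramp2 and Ramp3. Knockout replicate 3 had the lowest value of every RAMP among the knockouts and the highest Adm. The SD of Adm was 0.51 in knockouts against 0.15 in controls, that of Ramp1 0.36 against 0.09 and that of Ramp3 0.43 against 0.18, whereas that of Ramp2 was 0.29 against 0.30.

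Genes with the most similar profiles were sought for Adm, Calcrl and Ramp2 among 11274 protein-coding genes above the median level. Likeness was the root mean square distance between profiles over the 6 arrays, each centred on its own mean. The nearest to Adm were Galnt7 (0.05 log2 units), Rasgrp1 (0.07) and Mast4 (0.08). The nearest to Calcrl were Pcf11 (0.08), Snapc3 (0.11) and Usp34 (0.12), whose log2 fold changes lay between -1.97 and -1.80. The nearest to Ramp2 were Selenoo (0.05), Cops9 (0.06) and Gpihbp1 (0.07). Gpihbp1 marks capillary endothelial cells, and like Ramp2 it did not pass the threshold (0.53 ± 0.23 SE; limma, adjusted p = 0.13). Neighbours were picked by likeness over these same arrays, so their like fold changes and calls follow from the selection. A shared cell type was not tested.

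The related peptides and receptors of the calcitonin family showed no called gene. Of 4 measured (Calcb, Iapp, Calcr and Crcp) 0 rose and 0 fell, beside 12.5% and 13.0% of all genes. The median log2 fold change was -0.12, against 0.04 over all genes. Calcb, Iapp and Calcr were dim, at mean log2 levels of 2.02, 1.90 and 2.44 against a lower quartile of 2.02, so changes may have been missed. Crcp, an accessory protein that couples the receptor to its G protein, stood at -0.58 ± 0.35 and Calcr, the calcitonin receptor, at 0.03 ± 0.21 (SE; limma, adjusted p = 0.27 and 0.93). Calca is not analysed here.

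Genes for enzymes and scavenger receptors that make or clear the peptides changed at 3 of 9 measured (33.3%, against 25.5% of all genes), all 3 among the 7 enzymes. The scavenger receptor genes Ackr3 and Gpr182 did not pass. Mme encodes neprilysin, a surface protease that degrades adrenomedullin. The Mme log2 level was 7.88, 7.84 and 7.69 on control replicates 1, 3 and 4 and 5.98, 6.49 and 6.14 on knockout replicates 1, 3 and 4, without overlap. It fell by 1.60 ± 0.20 log2 units (SE; limma, adjusted p = 0.0022). Furin, a convertase that cuts peptide precursors, rose by 1.45 ± 0.22 (SE; limma, adjusted p = 0.0030). Ide, the insulin-degrading enzyme, stood at -1.89 ± 0.53 (SE; limma, adjusted p = 0.031). Its call was lost without control replicate 1 (adjusted p = 0.11), 3 (0.082) or 4 (0.076) and with Xist as a covariate (0.13). Pam, the enzyme that adds the amide group adrenomedullin needs for activity, did not pass (-0.65 ± 0.29, adjusted p = 0.14). The list's median was -0.46.

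Downstream of the receptor, genes of the stimulatory G protein and cyclic AMP arm moved both ways, with 3 of 22 higher, 3 lower (27.3% changed, against 25.5% of all genes) and a median of -0.14. Prkar1b, a regulatory subunit, rose by 1.40 ± 0.20 and Prkaca, a catalytic subunit, by 1.06 ± 0.20 (SE; limma, adjusted p = 0.0029 and 0.0070). Adcy2, an adenylyl cyclase, stood at -1.09 ± 0.22 and Rap1b, a small GTPase of the barrier response, at -0.97 ± 0.24 (SE; limma, adjusted p = 0.0087 and 0.018). The other called genes, picked only once their values were known, were Adcy3, another adenylyl cyclase, at 0.75, and Prkar2b, a further protein kinase A regulatory subunit, at -1.14 (limma, adjusted p = 0.032 and 0.024). The count of 6 was 3 without control replicate 1 and 3 without control replicate 3. Adcy3 lost its call without any 1 array other than knockout replicate 1 (adjusted p = 0.072 to 0.12). Prkar2b lost it without control replicate 1 (0.095), control replicate 3 (0.080), knockout replicate 1 (0.055) or knockout replicate 3 (0.063), and with the length trend removed (0.10). Both lost it with Xist as a covariate (0.099 and 0.11). Rap1b lost its call without control replicate 1 or control replicate 3 (adjusted p = 0.074 to 0.081) and with Xist as a covariate (0.091).

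Genes that silence and recycle receptors changed at 1 of 10 measured, below the 25.5% of all genes, with a median of -0.26. The 1 was Rab5a, the small GTPase of early endosomes, at -0.76 ± 0.19 (SE; limma, adjusted p = 0.019). The call of Rab5a needed control replicates 1 and 3 (adjusted p = 0.085 and 0.078 when each was left out) and was also lost with Xist as a covariate (0.096). The count was 3 without knockout replicate 1 and 3 without knockout replicate 3.

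RAMPs have been reported to bind other receptors too, and 13 of these were measured. Of them 0 were higher and 1 was lower (7.69%, against 25.5% of all genes), with a median of 0.18. The list was dim, at a median level percentile of 36.7, so changes may have been missed. The lower gene was Glp1r, the receptor of glucagon-like peptide 1. Its log2 level was 9.66, 9.11 and 8.63 on control replicates 1, 3 and 4 and 7.60, 7.62 and 6.94 on knockout replicates 1, 3 and 4, without overlap, and it fell by 1.75 ± 0.30 (SE; limma, adjusted p = 0.0048). The next by p were Pth1r at 0.60 ± 0.20, Gper1 at 0.77 ± 0.28 and Vipr1 at 0.50 ± 0.19, which did not pass (SE; limma, adjusted p = 0.051, 0.079 and 0.081). Pth1r passed in 5 alternatives at the same threshold (adjusted p = 0.041 to 0.047), among them the fit on protein-coding genes only, and with the length trend removed 4 of the 13 rose and 1 fell. Gper1 passed without knockout replicate 4 (adjusted p = 0.028), where the count was 2. Beside 12.5% higher and 13.0% lower of all genes, 0 rose and 0 fell of 4 other receptors that relax vessels through the same G protein. Their median level percentile was 42.6, so changes may have been missed there too. Ptger4, a prostaglandin receptor, had the smallest p among them (-0.56 ± 0.23 SE; limma, adjusted p = 0.10, and 0.037 with the length trend removed).

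**Figure D4:**
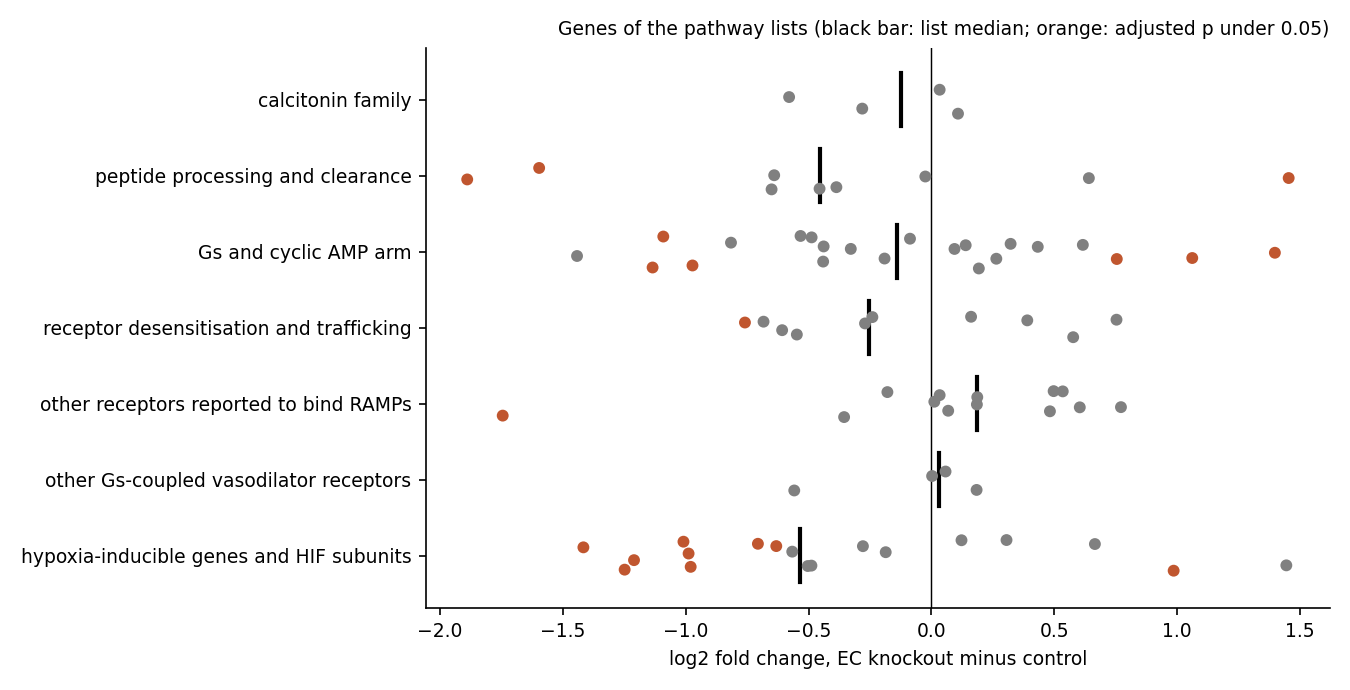
Log2 fold change (EC knockout minus control) of the measured genes of 7 lists around the adrenomedullin system, 1 point per gene, orange where the adjusted p was under 0.05. Black bars mark list medians, from -0.54 in the hypoxia list to 0.18 among the other RAMP-binding receptors. Points are shifted up or down only to keep them apart.

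Adm belongs to the genes that hypoxia-inducible factors switch on, and a list of other such genes and of the factors' own subunits was measured beside it. Of these 18 genes 1 rose and 8 fell, beside 12.5% and 13.0% of all genes, with a median of -0.54. Long genes fell more often, at 31.4% in the longest bin of gene length and 23.6% in the next. Among the genes that fell, Hif1a, Epas1, Arnt, P4ha1, Kdm3a and Pdk1 lie in those bins, and Bnip3 and Ldha do not. The 3 factor subunits Hif1a, Epas1 and Arnt all fell, and of the 15 other genes 1 rose and 5 fell. Kdm3a, a histone demethylase, stood at -1.25 ± 0.24 and the factor subunits Epas1 at -0.99 ± 0.21 and Hif1a at -1.42 ± 0.31 (SE; limma, adjusted p = 0.0071, 0.011 and 0.012). P4ha1, a collagen hydroxylase, stood at -1.21 ± 0.29 (SE; limma, adjusted p = 0.017). The count of 9 was 3 without control replicate 1, 1 without control replicate 3 and 4 without control replicate 4. With the length trend removed 1 gene of the list rose and 6 fell. The part of gene length in this list was not tested beyond that fit. Lungs with a poor expression response to hypoxia had been dropped, and the part of that choice was not tested. Hif1a lost its call without control replicate 1 (adjusted p = 0.057) or 3 (0.052), and with Xist as a covariate (0.065). Epas1 lost it without control replicate 3 (0.056). P4ha1 lost it without control replicate 1 (0.064), 3 (0.061) or 4 (0.054) and with Xist as a covariate (0.072).

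Markers of the cells that carry the receptor were measured as well, and their counts stand beside 12.5% higher and 13.0% lower over all genes. The pan-endothelial list held 16 measured genes, of which 5 rose and 5 fell, at a mean log2 level of 6.75 to 6.97 on control arrays and 6.58 to 6.87 on knockout arrays. Cdh5, which encodes VE-cadherin, stood at -1.52 ± 0.26 and Vwf, which encodes von Willebrand factor, at 1.61 ± 0.24 (SE; limma, adjusted p = 0.0045 and 0.0031). Of 6 lymphatic endothelial genes 0 rose and 2 fell, at a mean level of 5.09 to 5.49 on control arrays and 4.77 to 5.01 on knockout arrays. Lyve1, a hyaluronan receptor of lymphatic vessels that some macrophages also make, fell by 1.49 ± 0.20 (SE; limma, adjusted p = 0.0023). The other called lymphatic gene was Mmrn1, at -1.37. Flt4 (0.45), Prox1 (0.16), Reln (-0.05) and Pdpn (-0.55) did not pass, so the list did not move as a whole. Of 10 lung capillary genes 3 rose and 2 fell, with Plvap at 1.43 ± 0.25 and Ptprb at -2.14 ± 0.43 (SE; limma, adjusted p = 0.0052 and 0.0083). That count of 5 was 2 without control replicate 1, 2 without control replicate 3 and 3 without control replicate 4, and the lymphatic count of 2 was 1 without any 1 array other than knockout replicate 4. The pan-endothelial count of 10 was 6 without control replicate 1 and 5 without control replicate 3. With the length trend removed, 5 pan-endothelial genes rose and 3 fell. In that fit 1 lung capillary gene rose and 2 fell, and 0 lymphatic genes rose and 1 fell.

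Mural cells, the pericytes and smooth muscle cells around vessels, were read from 2 lists. Of 10 pericyte genes 4 rose and 4 fell (80.0% changed, against 25.5% of all genes), with Notch3 at 1.69 ± 0.24 and Postn at -1.72 ± 0.23 (SE; limma, adjusted p = 0.0027 and 0.0024). This list is bright, at a median level percentile of 91.0, so the 25.5% may be a low background for it. Of 8 smooth muscle genes 1 rose, Smtn by 1.03 ± 0.22 (SE; limma, adjusted p = 0.010), which lost its call without control replicate 3 (0.051). The smooth muscle count was 2 without control replicate 4. The smooth muscle list averaged 5.39 to 5.85 on control arrays and 5.78 to 5.99 on knockout arrays. Counts in the other lists were 2 higher and 3 lower of 11 alveolar epithelial genes, 2 and 2 of 7 airway genes, 0 and 1 of 7 alveolar macrophage genes, 1 and 0 of 5 neuroendocrine genes, 1 and 1 of 10 thymus genes, 0 and 0 of 4 erythroid genes and 0 and 1 of 5 adipose genes. Leaving out 1 array moved some of these counts: the airway count was 2 without control replicate 3, the thymus count 0 without control replicate 1 or 3, the macrophage count 2 without knockout replicate 4, the erythroid count 2 without knockout replicate 1 and the adipose count 2 without control replicate 4. The part of these cell types in the values of Calcrl and Ramp3 was not tested.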

How the data were processed

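The authors deposited log2 expression values, 1 per probe set. Per the submitters' processing notes they come from RMA, and the sources used here do not give its version, the probe set definition or the genome build. All 6 columns had a median of 2.98, so arrays were already scaled to each other. The platform annotation gave 1 symbol to 24705 of the 25428 probe sets, several to 0 and none to 723. For a symbol with more than 1 probe set the brighter was kept, which left 24704 genes, and no filter on dim genes was applied. The number of arrays limits the precision.

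Groups (3 control, 3 knockout) were compared in R 4.3.3 with lmFit and eBayes of limma 3.58.1, adjusted over all genes at 0.05. The procedure was also run on simulated independent noise with far fewer changed genes than were called here. That run therefore does not test the calls made on these arrays. Biotype and span came from the RefSeq table of GRCm38.p6, matched by Entrez identifier for 24673 probe sets. Differences between genes within arrays used exact permutation. The 6 genes and all lists were chosen with earlier results of these data known. Named genes were the 6, Nfat5, Xist, up to 4 genes of smallest p in each pathway list and up to 2 in each marker list, and the 3 nearest profiles of Adm, Calcrl and Ramp2. The rest of the lymphatic list was given as well. Alternatives covered filters, scaling, the variance prior, array weights, a replicate block, covariates, RNA class, gene length, thresholds and leaving out each array. The replicate numbers were not used to pair arrays.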

Additional observations from a re-analysis of the deposited data

How the results depend on the processing

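Across 21 alternatives Calcrl stayed lower in the knockout in 21 and Ramp3 stayed higher in 21, and each kept its call in 20. The exception was the fit with the median small nucleolar RNA level as a covariate. There Calcrl stood at -3.13 and Ramp3 at 0.63 without passing, and 0 of the 6 genes and 0 of all genes passed. The values of Adm (0.25), Adm2 (-2.17), Ramp1 (-0.27), Crcp (2.07), Gper1 (-1.81) and Ptger4 (0.63) changed sign. The value of Prkar2b, a called gene in the main fit, changed sign as well (0.28). That covariate separates the groups without overlap. Ramp2 stayed higher in 21 alternatives (0.38 to 1.05) and passed only at a threshold of 0.10 (0.62), where 3 of the 6 genes passed. When single arrays were left out, Calcrl ranged from -2.07 to -1.67, Ramp3 from 1.10 to 1.49, Ramp2 from 0.45 to 0.79, Ramp1 from 0.32 to 0.64, Adm from -0.52 to -0.03 and Adm2 from -0.034 to 0.46. Calcr (0.03) ranged from -0.10 (control replicate 3 left out) to 0.22 (control replicate 4 left out) without single arrays, with -0.018 when control replicate 1 was left out, and stood at -0.022 with Xist as a covariate and at 0.39 with the length trend removed. The count over all genes was 2882 to 6155 without single arrays (2882 without control replicate 3, 3141 without control replicate 1), 2560 at a threshold of 0.01 and 2838 with Xist as a covariate, against 6292. The cause of these changes was not tested. The difference of Calcrl minus Ramp2 ranged from -2.85 to -2.13 without single arrays.

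The labels give both groups replicates 1, 3 and 4. Deviations of same-numbered arrays from their group means correlated at 0.062, -0.013 and 0.0038 across genes, and not every array correlated best with its own number, so the numbers were not taken to pair the mice. With the replicate block Calcrl had an adjusted p = 0.0069, Ramp3 0.010 and Ramp2 0.057, 2 of the 6 genes passed, and the count over all genes was 6082. Centring arrays on protein-coding genes moved values by 0.04 and changed no call among the 6. Background is not known, so small changes of Adm2, close to the lower quartile, may have been missed.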
